A study of Mus musculus with 6 samples.

Results

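Fatty acids reach muscle, fat and marrow through the walls of capillaries, and a small set of proteins carries out the steps. Gpihbp1, a protein anchored on the endothelial surface, captures lipoprotein lipase (Lpl) and moves it to the vessel lumen, where the enzyme frees fatty acids from circulating triglyceride. Cd36 is a membrane receptor that takes up long-chain fatty acids, Fabp4 and Fabp5 are binding proteins that carry them in the cytoplasm, and Pparg is a nuclear receptor that is activated by fatty acids and controls several of these genes in fat cells and endothelium. Lpl, Cd36, Fabp4, Fabp5 and Pparg are also known from fat cells or macrophages, and the list was completed with Adipoq, the hormone adiponectin, and Plin1, the coat protein of the fat cell lipid droplet, which capillary cells are not known to make.

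The 8 genes were taken by symbol from an array annotation, through probe sets that name 1 gene only. Of them 7 were found, among 18193 genes named in this way on the array. Plin1 had no such probe set in the annotation used here and was not analysed here, so Adipoq alone stands for the pair of fat cell genes. Each gene was read from its brightest probe set over the 6 arrays, and the plot of all probe sets gives their identifiers. The genes were chosen by their difference between these populations on these same arrays, Fabp4 above all. Their differences are therefore a description and carry no test.

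The cells came from the fore and hind limb skeleton of mice at postnatal day 3, with the limbs of a litter pooled, and were separated by flow cytometry after collagenase digestion. The population called Tie2-positive here lacked CD45 and Ter119, was low for integrin alpha V (Itgav) and carried Tie2, the angiopoietin receptor (3 arrays). The population called Tie2-negative here lacked CD45, Ter119, integrin alpha V and Tie2 (3 arrays). The labels give all 6 samples as wild type and untreated but also speak of GFP-labelled animals, and whether replicates came from separate litters is not given, so the spread between arrays may be technical. All values are log2 array values after quantile normalization, all differences are Tie2-positive minus Tie2-negative, and errors are SD for means and SE of the limma fit for differences (n = 3 per population).

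The arrays checked against their labels as follows. Tek, the gene of Tie2, read 12.06, 10.86 and 9.80 in Tie2-positive replicates 1, 2 and 3, against 4.79 to 4.90 in the Tie2-negative arrays. All 16 pan-endothelial markers had every Tie2-positive value above every Tie2-negative value, as had 15.2% of all genes. Their median was 11.09, 9.78 and 8.88 in Tie2-positive replicates 1, 2 and 3, against 5.86 to 6.16 in the Tie2-negative arrays. Of 9 capillary endothelial markers, 4 had every Tie2-positive value above every Tie2-negative value, beside the same 15.2% of all genes. The differences of the capillary list ran from -0.66 to 8.57. Its median difference was 0.75, against 4.18 for the pan-endothelial markers. The median of 10 neutrophil markers was 5.90, 11.81 and 13.51 in Tie2-positive replicates 1, 2 and 3, against 6.13, 7.84 and 8.50 in Tie2-negative replicates 1, 2 and 3. The Tie2-positive replicate 1 thus had the highest endothelial and the lowest neutrophil signal. Ptprc, the gene of the CD45 antigen excluded by both gates, read 4.87 in that array but 9.95 and 11.22 in Tie2-positive replicates 2 and 3, and 9.42 to 10.41 in the Tie2-negative arrays. Erythroid markers had a median of 6.24, 8.77 and 6.49 in the Tie2-positive arrays and of 12.23, 10.63 and 10.60 in the Tie2-negative arrays. Early B cell markers had a median of 5.40, 5.74 and 5.64 in the Tie2-positive arrays and of 9.74, 10.47 and 7.85 in the Tie2-negative arrays. The 3' to 5' difference of the Actb and Gapdh control probe sets was 1.44 to 1.80 in the Tie2-positive and 1.85 to 2.02 in the Tie2-negative arrays. In such bulk samples, fewer cells of a type and less RNA per cell cannot be told apart.

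**Figure D1:**
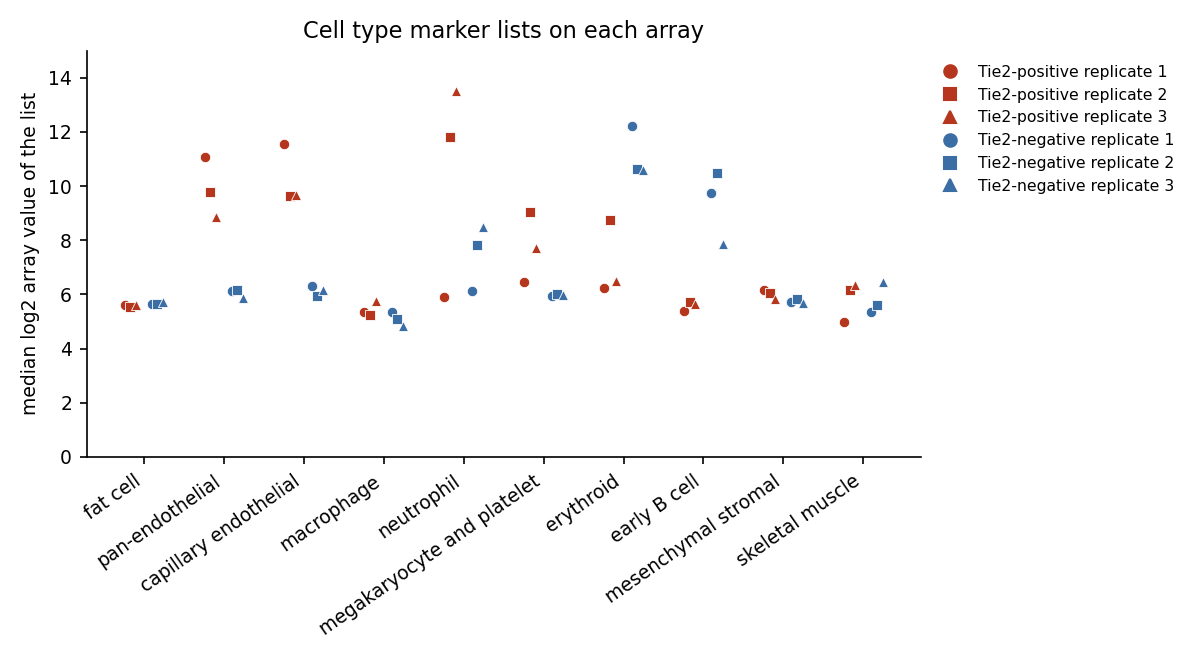
Median log2 array value (vertical axis) of each cell type marker list (horizontal axis) on the 3 Tie2-positive arrays (red, left) and the 3 Tie2-negative arrays (blue, right). Endothelial medians lie above 8 in all Tie2-positive arrays, the neutrophil medians of Tie2-positive replicates 2 and 3 reach 11.81 and 13.51, and the fat cell list stays between 5.55 and 5.74 on every array.

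The machinery that holds lipoprotein lipase at the vessel wall was higher in the Tie2-positive cells. Gpihbp1 read 12.63, 10.55 and 9.02 in Tie2-positive replicates 1, 2 and 3, against 7.01, 6.81 and 6.53 in Tie2-negative replicates 1, 2 and 3. Its populations did not overlap, its Tie2-negative values lay close together, and its Tie2-positive values spread over 3.61 log2 units. The means were 10.73 ± 1.81 in the Tie2-positive and 6.79 ± 0.24 in the Tie2-negative population (SD, n = 3 each), a difference of 3.95 ± 0.83 (SE). Gpihbp1 had 1 probe set.

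Lpl, the lipase itself, is made mainly by the cells beneath the endothelium and is also a product of macrophages, muscle and fat cells. It read 10.75, 9.75 and 8.80 in Tie2-positive replicates 1, 2 and 3, against 7.72, 6.40 and 8.52 in Tie2-negative replicates 1, 2 and 3. The populations did not overlap, but only 0.28 log2 units parted the lowest Tie2-positive from the highest Tie2-negative array. The difference was 2.22 ± 0.67 (SE, n = 3 per population) in the probe set used and 1.06 in its other probe set, where the populations did not overlap either. Of 12 skeletal muscle markers 0 were called higher and 1 lower, and of 15 macrophage markers 1 was called higher and 0 lower by limma at an adjusted p under 0.05, beside 4.84% higher and 2.53% lower over all genes. The macrophage marker called higher was Mrc1, a mannose receptor also made by sinusoidal endothelium. Csf1r, a receptor carried by macrophages, read 6.88, 7.33 and 9.61 in the Tie2-positive and 6.90, 7.47 and 7.36 in the Tie2-negative arrays. Its brightest probe set, used here, gave a difference of 0.69, and its other probe sets gave 0.02 and -0.21. The median of the skeletal muscle markers was 4.99, 6.16 and 6.33 in Tie2-positive replicates 1, 2 and 3. In Tie2-negative replicates 1, 2 and 3 it was 5.36, 5.60 and 6.47. Within that population replicate 3 was highest in both Lpl and these markers, but Lpl was lowest in replicate 2 and the markers in replicate 1. From Tie2-positive replicate 1 to replicate 3 the median of these markers rose while Lpl fell. The part of macrophages and muscle in the Lpl signal was not tested.

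Cd36 overlapped between the populations. It read 12.30, 9.30 and 8.62 in Tie2-positive replicates 1, 2 and 3, against 10.39, 8.14 and 6.35 in Tie2-negative replicates 1, 2 and 3. Tie2-negative replicate 1 thus exceeded Tie2-positive replicates 2 and 3, and the spread within each population was larger than the difference of 1.78 ± 1.26 (SE, n = 3 per population). Cd36 fell from replicate 1 to replicate 3 in both populations, and at each replicate number the Tie2-positive array was the higher. Whether the numbers pair the samples was not settled here. The other probe sets of Cd36 gave differences of 1.92 and 1.94, and their populations overlapped as well. Without Tie2-positive replicate 1 the difference was 0.67, and without Tie2-negative replicate 3 it was 0.81. With Tie2-positive replicate 1 as the only array of its population it was 4.00, a setting chosen after the values were seen.

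Cd36 is also carried by platelets, by macrophages and by immature red cells. In the Tie2-negative arrays, where Cd36 differed by 4.04 between replicates 1 and 3, the median difference of 10 erythroid markers between the same arrays was 0.66. Single erythroid markers were unlike. Alas2 read 13.86, 10.45 and 9.15 in Tie2-negative replicates 1, 2 and 3, and Klf1 read 12.34, 12.07 and 12.25. Pf4, a platelet chemokine, read 9.11, 12.21 and 11.89 in the Tie2-positive arrays and 5.59, 6.12 and 5.65 in the Tie2-negative arrays. The median of 8 megakaryocyte and platelet markers was 6.47, 9.05 and 7.72 in the Tie2-positive and between 5.93 and 6.02 in the Tie2-negative arrays. The part of these cells in the Cd36 signal was not tested.

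**Figure D2:**
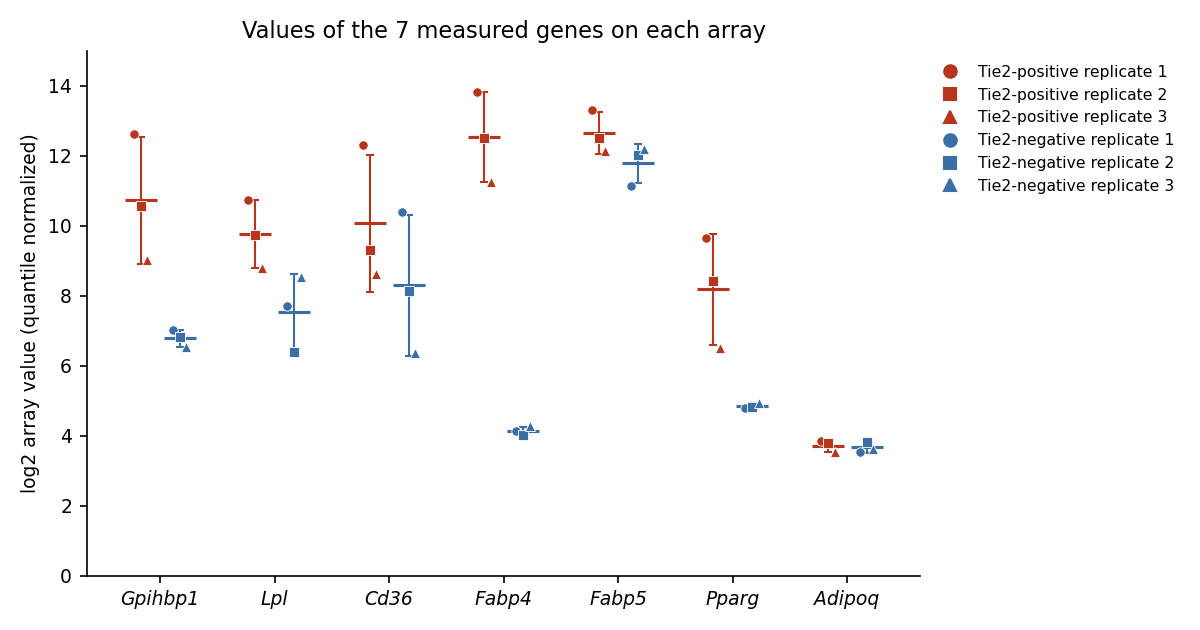
Log2 array value (vertical axis) of the 7 measured genes (horizontal axis) on the 3 Tie2-positive (red, left) and 3 Tie2-negative arrays (blue, right). Symbols mark replicates, horizontal bars the means and error bars the SD. Fabp4 shows the widest gap, with values from 11.26 to 13.83 in Tie2-positive and from 4.03 to 4.27 in Tie2-negative cells, whereas the populations of Cd36, Fabp5 and Adipoq overlap.

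Of the binding proteins, Fabp4 separated the populations widely and Fabp5 did not. Fabp4 read 13.83, 12.51 and 11.26 in Tie2-positive replicates 1, 2 and 3, against 4.14, 4.03 and 4.27 in Tie2-negative replicates 1, 2 and 3. Every Tie2-positive value was above 11 and every Tie2-negative value below 5. Means were 12.53 ± 1.29 in the Tie2-positive and 4.14 ± 0.12 in the Tie2-negative population (SD, n = 3 each), with a difference of 8.39 ± 0.60 (SE). In the Tie2-negative arrays between 7.8% and 10.6% of all genes had values at or below that of Fabp4. The deposited values carry no detection calls, so whether Fabp4 lay above background there was not analysed, and the size of the difference is that of the array values. The populations did not overlap in any of the 4 Fabp4 probe sets, but the size depended on the probe set, with differences of 8.39, 8.44, 2.86 and 1.69.

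Fabp5 was high on every array. It read 13.30, 12.51 and 12.14 in Tie2-positive replicates 1, 2 and 3, against 11.15, 12.01 and 12.19 in Tie2-negative replicates 1, 2 and 3. Tie2-negative replicate 3 lay above Tie2-positive replicate 3, and the difference was 0.87 ± 0.38 (SE, n = 3 per population). Its second probe set gave 1.21, with values of 9.79 to 11.51 in the Tie2-positive and 9.10 to 9.72 in the Tie2-negative arrays, which did not overlap.

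Fabp5 and Fabp4 lie in 1 cluster of 5 neighbouring protein-coding genes on mouse chromosome 3, in the order Fabp5, Pmp2, Fabp9, Fabp4 and Fabp12 in RefSeq. Pmp2 encodes the fatty acid binding protein of peripheral myelin and Fabp9 that of the testis. Limma called none of these other 3 genes, with adjusted p of 0.236 for Pmp2, 0.684 for Fabp9 and 0.476 for Fabp12. Their differences were -0.32 ± 0.16, -0.07 ± 0.10 and -0.20 ± 0.18 (SE, n = 3 per population), and on every array they read between 3.98 and 5.89. The gap between populations at Fabp4 was thus not seen at the genes on either side of it.

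**Figure D3:**
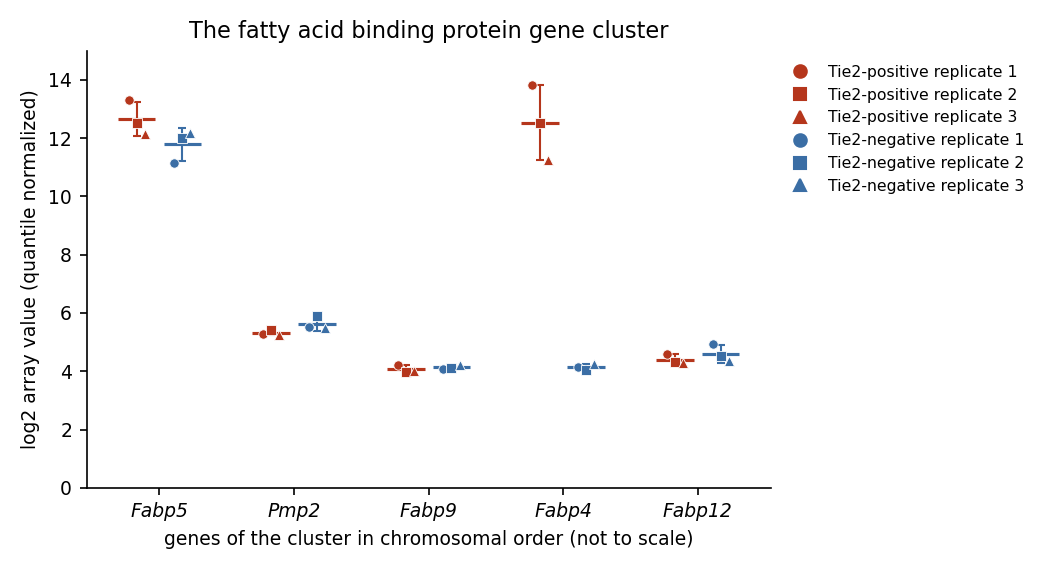
Log2 array value (vertical axis) of the 5 genes of the fatty acid binding protein cluster in chromosomal order (horizontal axis, not to scale), in Tie2-positive (red, left) and Tie2-negative arrays (blue, right). Symbols mark replicates, horizontal bars the means and error bars the SD. Fabp5 is above 11 on all arrays, Fabp4 only in Tie2-positive cells, and Pmp2, Fabp9 and Fabp12 stay below 6.

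Pparg, the nuclear receptor, was the regulator among the 7 genes. It read 9.65, 8.41 and 6.50 in Tie2-positive replicates 1, 2 and 3, against 4.78, 4.82 and 4.94 in Tie2-negative replicates 1, 2 and 3. The Tie2-negative values lay within 0.16 of each other, and the lowest Tie2-positive array was 1.57 above the highest of them. Means were 8.19 ± 1.59 in the Tie2-positive and 4.85 ± 0.08 in the Tie2-negative population (SD, n = 3 each), a difference of 3.34 ± 0.72 (SE). Mouse Pparg has alternative starts, which give a widely made form and a form of fat cells, and its 1 probe set here does not tell them apart.

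The fat cell gene Adipoq read low in both populations. It read 3.84, 3.79 and 3.52 in Tie2-positive replicates 1, 2 and 3, against 3.53, 3.83 and 3.63 in Tie2-negative replicates 1, 2 and 3. These values overlapped, the difference was 0.05 ± 0.12 (SE, n = 3 per population), and no more than 5.9% of all genes had values at or below it on any array. Of 17 other fat cell markers, limma called 0 higher and 1 lower, beside 4.84% higher and 2.53% lower over all genes, and the list's median difference of -0.13 lay beside -0.11 over all genes. The lower gene was Scd1, a fatty acid desaturase, which fell by 2.85 ± 0.25 (SE; limma adjusted p = 0.0101). Lep, the hormone leptin, read 4.33 to 4.48 in the Tie2-positive and 4.38 to 4.68 in the Tie2-negative arrays, and Cidec, a droplet protein of fat cells, read 3.97 to 4.19 in the Tie2-positive and 3.70 to 4.44 in the Tie2-negative arrays. Aoc3, an amine oxidase made by endothelium as well as fat cells, was named after its value was seen. It had the largest positive difference of the list, 2.45 ± 0.93 (SE), and did not pass (limma adjusted p = 0.145). Thrsp, also of the list and named after its values were seen, differed by -0.37 in its brightest probe set. Its other probe sets gave 0.38 and 2.43. The one with 2.43 read 8.78, 5.79 and 5.18 in the Tie2-positive and 4.07 to 4.22 in the Tie2-negative arrays.

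Of the 7 genes, 4 (Gpihbp1, Lpl, Fabp4 and Pparg) had all Tie2-positive values above all Tie2-negative values, an arrangement found in 15.2% of all genes. The genes were picked with this contrast known, so nothing is read from that count. Over all their 14 probe sets it held for 9.

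**Figure D4:**
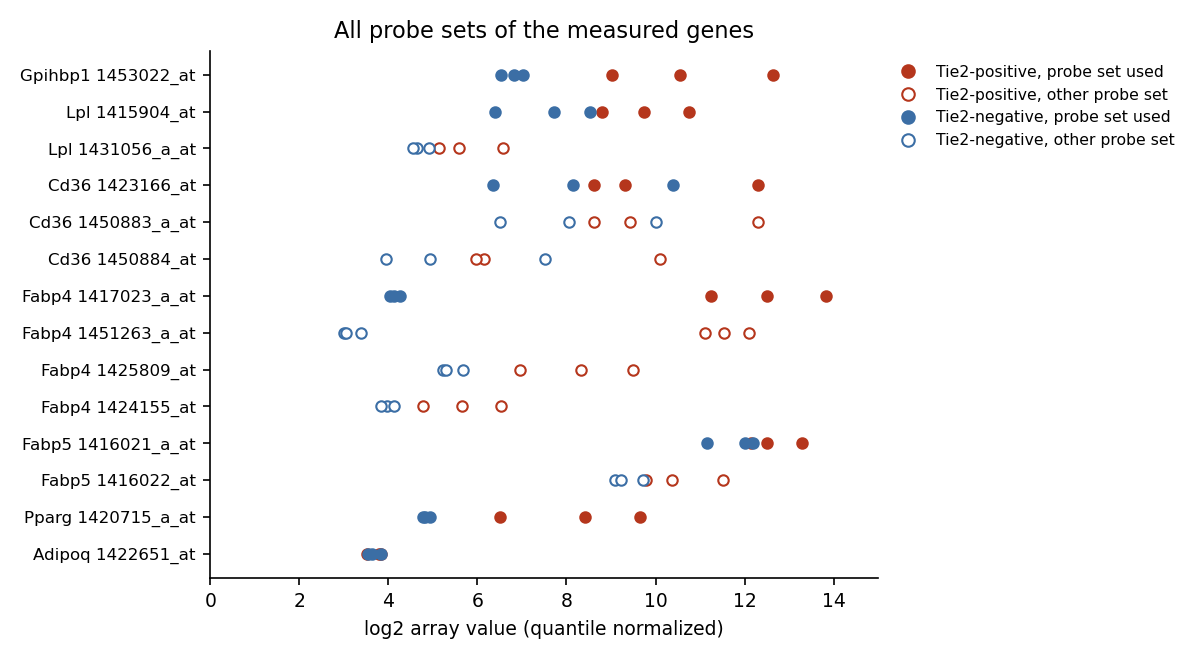
Log2 array value (horizontal axis) of all 14 probe sets of the 7 genes (vertical axis), with Tie2-positive arrays in red and Tie2-negative arrays in blue, filled for the probe set used and open for the others. The 4 Fabp4 probe sets all part the populations, by 1.69 to 8.44 on the log2 scale, and none of the 3 Cd36 probe sets does.

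Within the Tie2-positive population the genes shared a pattern. All 7 were highest in replicate 1 and lowest in replicate 3, which held for 25.4% of all genes, although for Adipoq the whole range was 0.32. Replicate 1 exceeded replicate 3 by 3.67 for Cd36, 3.61 for Gpihbp1, 3.15 for Pparg, 2.57 for Fabp4, 1.95 for Lpl and 1.16 for Fabp5. The corresponding median was 2.63 for the pan-endothelial markers, 2.04 for the capillary endothelial markers and -7.67 for the neutrophil markers. With Tie2-positive replicate 1 alone, chosen after the values were seen, the differences from the Tie2-negative arrays were 9.68 for Fabp4, 5.85 for Gpihbp1, 4.81 for Pparg, 3.20 for Lpl and 1.52 for Fabp5. Without that array they were 7.74 for Fabp4, 3.00 for Gpihbp1, 2.61 for Pparg, 1.73 for Lpl and 0.54 for Fabp5.

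The likeness of patterns was measured as the root mean square difference over the 6 arrays, after each gene's own mean was subtracted. Gpihbp1 and Pparg were the closest pair among the 7 genes (0.43 log2 units), and Fabp4 and Adipoq the farthest (4.22). The measure keeps the size of the changes, so genes that vary little lie close together. Fabp5 and Adipoq, for example, lay 0.56 apart. The genes nearest to Fabp4 were Aplnr, the apelin receptor (0.30), Epas1, a hypoxia-inducible factor (0.67), and Nrp1, a co-receptor of vascular endothelial growth factor (0.85). Nearest to Gpihbp1 were Ccn2 (0.15), the semaphorin receptor Plxnd1 (0.20) and the endothelial protocadherin Pcdh12 (0.22). Pparg lay nearest to the prostaglandin transporter Slco2a1 (0.18), the adhesion molecule Nectin2 (0.20) and the adhesion receptor Adgrg6 (0.23). Lpl had no neighbour closer than Cthrc1 (0.43), Pdlim7 (0.44) and Ica1 (0.45). For Cd36 the nearest genes were the glucose transporter Slc2a1 (0.71), Oasl2 (0.83) and Gbp2 (0.85), and for Fabp5 they were Trib2 (0.12), Sap30l (0.12) and Rps4l (0.14). Slc2a1 resembled Cd36 in reading 9.98 in Tie2-negative replicate 1 but 6.71 and 6.68 in replicates 2 and 3. Adipoq hardly varied, and its nearest genes Vax2 (0.02), Mx2 (0.02) and Ppp1r36 (0.04) hardly varied either.

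Start regions from RefSeq (250 bases before to 50 after a transcript start, GRCm38.p6) were used for Cd36, Pparg, Plin1 and Adipoq. Those of the regulator Pparg are shown at its 3 starts because its probe set cannot tell the starts apart, and those of Cd36 and Adipoq because they are known Pparg targets in fat cells with unlike values here. Capitals mark AGGTCA, the hexamer that nuclear receptors bind, TATAAA, and the GC box GGGCGG, each on either strand, and the sequences run 5′ to 3′ on the strand of the gene.
Pparg, chr6:115360894-115361193, plus strand: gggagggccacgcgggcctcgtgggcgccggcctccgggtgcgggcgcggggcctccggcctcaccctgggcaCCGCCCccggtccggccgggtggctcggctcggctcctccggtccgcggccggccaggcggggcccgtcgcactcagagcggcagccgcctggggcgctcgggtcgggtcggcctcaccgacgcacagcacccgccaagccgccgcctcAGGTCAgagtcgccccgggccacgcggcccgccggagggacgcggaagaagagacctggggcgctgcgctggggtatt
Pparg, chr6:115362099-115362398, plus strand: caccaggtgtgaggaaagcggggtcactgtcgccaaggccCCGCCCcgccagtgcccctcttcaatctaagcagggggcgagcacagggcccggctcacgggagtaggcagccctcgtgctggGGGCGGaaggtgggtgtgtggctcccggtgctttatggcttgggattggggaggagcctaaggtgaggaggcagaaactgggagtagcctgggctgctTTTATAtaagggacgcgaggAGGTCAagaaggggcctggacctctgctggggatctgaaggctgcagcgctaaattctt
Pparg, chr6:115421816-115422115, plus strand: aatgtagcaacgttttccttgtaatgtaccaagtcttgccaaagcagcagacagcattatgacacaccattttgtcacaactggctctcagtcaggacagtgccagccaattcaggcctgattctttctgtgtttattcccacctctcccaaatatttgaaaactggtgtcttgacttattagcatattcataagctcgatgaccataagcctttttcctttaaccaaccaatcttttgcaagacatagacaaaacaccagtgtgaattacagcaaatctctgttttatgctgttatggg
Cd36, chr5:17835847-17836146, minus strand: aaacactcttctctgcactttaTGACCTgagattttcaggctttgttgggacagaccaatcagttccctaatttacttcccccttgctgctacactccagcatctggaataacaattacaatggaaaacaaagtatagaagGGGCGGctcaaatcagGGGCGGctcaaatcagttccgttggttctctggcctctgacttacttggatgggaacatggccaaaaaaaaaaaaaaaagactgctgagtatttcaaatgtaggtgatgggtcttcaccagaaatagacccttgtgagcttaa
Adipoq, chr16:23146286-23146585, plus strand: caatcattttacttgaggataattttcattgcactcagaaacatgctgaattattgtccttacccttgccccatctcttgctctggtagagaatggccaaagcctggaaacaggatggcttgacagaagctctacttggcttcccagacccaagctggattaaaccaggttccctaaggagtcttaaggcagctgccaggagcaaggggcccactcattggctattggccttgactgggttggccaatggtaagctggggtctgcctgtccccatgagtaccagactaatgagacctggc

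The letters AGGTCA occurred once in the start region of Cd36 and once in each of the upstream pair of Pparg starts, and not in the windows of the third Pparg start, Adipoq or Plin1. Over all 32851 RefSeq start regions of this length, 16.3% held AGGTCA, 13.6% held TATAAA and 35.7% held GGGCGG. In the repeat AGGTCANAGGTCA, which overlaps the hexamer search, 1 base parts a pair of the hexamers. It is the consensus form of the element bound by Pparg with its partner RXR. This exact form was in none of the 6 windows of these genes and in 0.0396% of all start regions. With so low a share, its absence from 6 windows says nothing about binding of Pparg. TATAAA was found on the opposite strand at the second Pparg start, and the GC box at Cd36 and at the upstream pair of Pparg starts.

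Beyond these genes, few members of the wider fatty acid pathway passed the test. Lists were drawn up for lipoprotein lipolysis, fatty acid uptake and activation, regulators around the PPAR and RXR receptors, lipid storage, and mitochondrial oxidation, without the 8 genes above. Of 81 measured genes in these 5 lists (of 89 named), limma called 6 higher (7.41%) and 2 lower (2.47%) at an adjusted p under 0.05. Over all 18193 genes the shares were 4.84% higher and 2.53% lower, or 7.37% in all, so the lists as a group lay near the background. Their median difference was 0.03, against -0.11 over all genes.

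Around lipolysis, 2 of 15 genes rose and 0 fell. The number called higher was 4 with values as deposited, with arrays centred on their medians and without Tie2-positive replicate 1, and 1 when replicate 2 of the Tie2-positive or replicate 3 of the Tie2-negative arrays was left out. Apoe, a ligand of lipoprotein receptors, read 10.65, 12.09 and 10.98 in Tie2-positive arrays, against 6.39, 7.46 and 7.72 in Tie2-negative arrays, and rose by 4.05 ± 0.49 (SE, n = 3 each; adjusted p = 0.0117 in limma). Lmf1, the factor that lipases need to fold, rose to 7.06, 6.95 and 6.70 in Tie2-positive arrays, against 5.58, 5.99 and 6.13 in Tie2-negative arrays (limma adjusted p = 0.0385). Over the mean of its probe sets Lmf1 did not pass (0.59, adjusted p = 0.0658). Angptl4, a secreted inhibitor of lipoprotein lipase, was named after its value was seen, with 9.20 to 10.82 in the Tie2-positive and 7.73 to 8.61 in the Tie2-negative arrays, and did not pass (adjusted p = 0.0553). Lipg, the lipase named after endothelium, read 5.45 to 6.02 in the Tie2-positive and 5.63 to 6.25 in the Tie2-negative arrays.

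Among uptake and activation genes, 2 of 17 rose and 0 fell. Cav1, the caveola protein, read 13.79, 12.09 and 12.27 in Tie2-positive arrays, against 6.51, 5.98 and 7.88 in Tie2-negative arrays, and rose by 5.93 ± 0.62 (SE, n = 3 each; adjusted p = 0.0105 in limma). Slc27a4, a fatty acid transport protein with acyl-CoA synthetase activity, rose by 1.09 ± 0.23 (SE; adjusted p = 0.0402). The other binding protein genes Fabp1, Fabp2, Fabp3, Fabp6 and Fabp7 read below 6 on every array and did not pass.

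In the regulator list, 2 of 18 rose and 0 fell. Meox2, a homeobox factor known from mouse heart to drive fatty acid uptake by capillary endothelium, read 11.20, 8.08 and 8.25 in Tie2-positive arrays, against 3.21, 3.40 and 3.41 in Tie2-negative arrays, and rose by 5.84 ± 0.79 (SE, n = 3 each; adjusted p = 0.0140 in limma). Cebpd, a factor of early fat cell differentiation, rose by 4.03 ± 0.58 (SE; adjusted p = 0.0153), or by 2.14 over the mean of its probe sets. Tcf15, the partner of Meox2 in heart endothelium, was named after its value was seen. It read 8.99, 6.59 and 6.71 in the Tie2-positive and 6.33 to 6.45 in the Tie2-negative arrays, and did not pass (adjusted p = 0.306). The relatives Ppara and Ppard read 4.97 to 5.31 and 5.43 to 5.82 in the Tie2-positive arrays, and 4.92 to 5.66 and 5.53 to 5.92 in the Tie2-negative arrays, with no call.

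Storage genes included the pair that fell, 2 of 18, with 0 rising. Gpam, the first enzyme of triglyceride synthesis, read 8.88, 9.19 and 9.29 in Tie2-positive arrays, against 10.22, 10.88 and 10.02 in Tie2-negative arrays (-1.25 ± 0.28, SE; limma adjusted p = 0.0460). Lpin1, a phosphatidate phosphatase, fell by 1.20 ± 0.25 (SE; adjusted p = 0.0370). With arrays centred on their medians neither passed (adjusted p = 0.0503 for Gpam and 0.0708 for Lpin1). Of 13 oxidation genes limma called 0, while 1 had an unadjusted p under 0.05, as had 5201 of all 18193 genes. The differences of the oxidation genes ran from -0.40 to 0.53. The 2 genes whose probe sets had the highest means, Hadh and Hadhb, read 11.96 to 12.24 and 10.39 to 10.80 in Tie2-positive arrays, and 11.80 to 12.33 and 10.70 to 10.96 in Tie2-negative arrays.

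**Figure D5:**
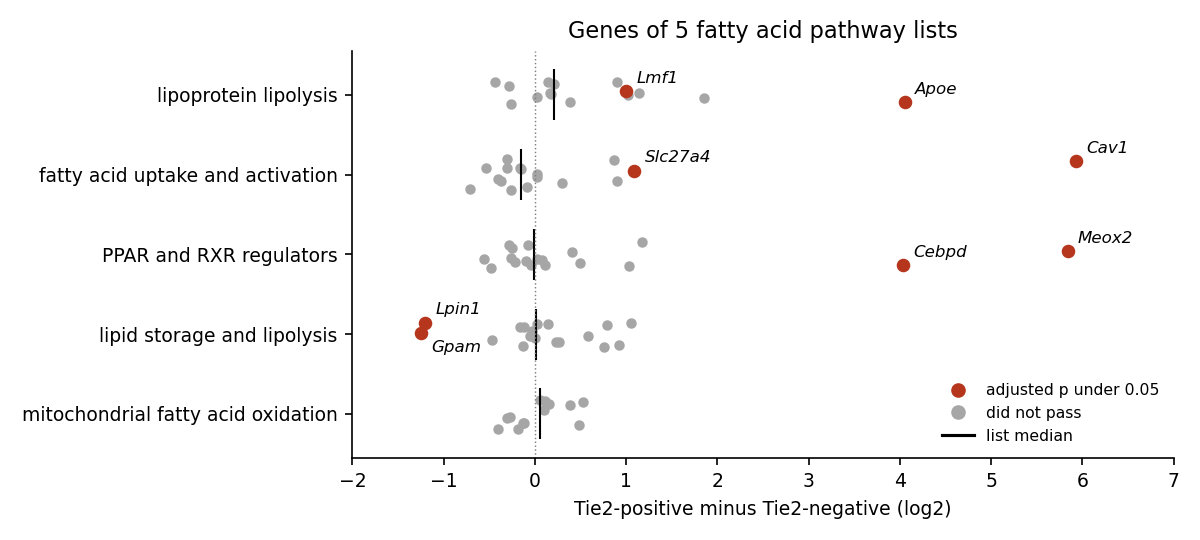
Difference in log2 array value, Tie2-positive minus Tie2-negative (horizontal axis), of each gene in 5 fatty acid pathway lists (vertical axis). Red points passed limma at an adjusted p under 0.05 and are named, grey points did not, and black bars mark list medians, which lie between -0.15 and 0.21.

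The pathway calls depended on single arrays, as did the calls over all 18193 genes. With every array kept, limma called 8 genes of the 5 lists, beside 1341 of all genes. Dropping a Tie2-positive array gave 11 beside 2157 (replicate 1), 4 beside 496 (replicate 2) and 5 beside 1085 (replicate 3). Among the Tie2-negative arrays, dropping replicate 3 gave 3 beside 376, and dropping replicate 1 or replicate 2 gave 0 beside 0. Whether the list counts changed more than the whole-array counts was not tested. Of the uptake genes, 1 was called without Tie2-positive replicate 2, without Tie2-positive replicate 3 and without Tie2-negative replicate 3. Among the fits that left out 1 array, storage genes called lower numbered 2 without Tie2-positive replicate 1 and 0 in the other 5. Apoe, Cav1 and Cebpd were called in 11 of 14 alternatives. They failed in the 2 fits that dropped Tie2-negative replicate 1 or replicate 2, and with replicate numbers as a block. Meox2 also failed without Tie2-negative replicate 3 (10 of 14), and Slc27a4, Lmf1, Gpam and Lpin1 were called in 8, 7, 7 and 6 of 14.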

How the data were processed

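RNA of 6 sorted samples was amplified in serial rounds and hybridised to Affymetrix mouse arrays scanned with GCOS 1.1.1, per the labels' protocols. The authors deposited 1 log2 value per probe set and array, the scale being taken from the range of the values (2.56 to 14.78). How the authors summarised and normalized these log2 values was not stated in any label or header used here. Of 45101 probe sets, 64 controls were left out, 34945 named 1 gene in the platform annotation, 932 named several and 9160 were unnamed here. Array 75th percentiles differed by 0.26, above a limit of 0.1, so values were quantile normalized, and this also took out a shift between the populations. Each of 18193 genes was read from its brightest probe set and fitted with limma 3.58.1 in R 4.3.3 (eBayes with a mean trend, two-sided, Benjamini-Hochberg over all genes, threshold 0.05). The procedure was tested on simulated data.

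The 8 genes and the 15 gene lists were chosen with earlier results of these data known. Named pathway genes were up to 4 called genes per list with the largest change and a higher mean above 6.55 (the median of all gene values), or else the 2 with the highest mean. The 3 nearest genes were named for each member. The 6 arrays limit the precision.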

Additional observations from a re-analysis of the deposited data

How the results depend on the processing

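The differences of Fabp4, Fabp5, Cd36, Gpihbp1, Lpl and Pparg kept their sign in all 14 alternatives. For Fabp4, Gpihbp1, Lpl and Pparg the populations did not overlap, so leaving out arrays or changing the model could not turn the sign. The genes were also chosen by these differences, so nothing is read from the kept signs. The difference of Adipoq lay between -0.02 and 0.18 in the 13 alternatives that kept it. Leaving out 1 array gave 7.74 to 9.02 for Fabp4, 3.00 to 4.81 for Gpihbp1, 2.61 to 4.19 for Pparg, 1.65 to 2.71 for Lpl, 0.54 to 1.12 for Fabp5 and 0.67 to 2.83 for Cd36. Over the mean of all probe sets Fabp4 was 5.34. Limma calls over all genes numbered 1341, and between 0 and 2157 without 1 array; those of the 5 pathway lists numbered 8, and between 0 and 11. Without Tie2-negative replicate 1 or 2 no gene passed (lowest adjusted p 0.0519 and 0.0601), while 4012 and 3978 genes had an unadjusted p under 0.05. With Tie2-positive replicates 2 and 3 left out together, chosen after seeing the data, the counts were 3653 and 17, the spread of the lone array being taken from the Tie2-negative arrays. With replicate numbers as a block, limma called 0 genes and 0 pathway genes (smallest adjusted p 0.0528, 5080 genes at an unadjusted p under 0.05). The main fit did not take the numbers to pair the samples. Over all genes the deviations of same-numbered arrays correlated at 0.14, 0.01 and 0.19, which cannot settle whether they were paired. From replicate 1 to replicate 3, Cd36 fell and the neutrophil median rose in both populations. Fabp5 fell in the Tie2-positive and rose in the Tie2-negative arrays. The causes were not tested.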

Other observations

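Genes known from fat cell precursors are given as values. Zfp423, a zinc finger factor of committed fat cell precursors in mouse, read 7.93, 6.51 and 5.15 in Tie2-positive replicates 1, 2 and 3, against 4.28, 3.90 and 4.22 in Tie2-negative replicates 1, 2 and 3, and did not pass (2.39 ± 0.63, SE, n = 3 per population; limma adjusted p = 0.0681). Dlk1, a surface protein that keeps fat cell precursors undifferentiated, read 5.53, 7.32 and 8.86 in the Tie2-positive and 5.24, 6.05 and 7.32 in the Tie2-negative arrays, and did not pass (adjusted p = 0.459). Among the Tie2-positive arrays, Zfp423 was thus highest and Dlk1 lowest in replicate 1. Lepr, the leptin receptor that marks perivascular stroma of adult marrow, differed by probe set. Its brightest one read 7.22, 6.06 and 5.75 in Tie2-positive arrays, against 5.87, 5.83 and 5.67 in Tie2-negative arrays, and another read 9.90, 7.42 and 6.77 in Tie2-positive arrays, against 3.65, 4.03 and 3.54 in Tie2-negative arrays. The differences of its 4 probe sets were 0.55, 4.29, 2.84 and -0.14, and the populations did not overlap in those with 4.29 and 2.84. Of 11 mesenchymal stromal markers, which include these genes, limma called 0 and 3 had an unadjusted p under 0.05, as had 5201 of all 18193 genes. The differences of the list ran from -0.37 for Dcn to 2.53 for Col3a1. Their median was 0.39, against -0.11 over all genes. Pdgfra differed by 0.15 and Prrx1 by 0.16 in their brightest probe sets. The genes named in this paragraph were chosen for mention after their values were seen.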
